A study of Mus musculus with 6 samples.

Results

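The genes described here are 10 members of the Smad pathway, taken by name from the table of 11234 genes measured in the MC3T3-E1 experiment. They are *Smad1* to *Smad7*, the ubiquitin ligase genes *Smurf1* and *Smurf2*, and the target gene *Id1*, and all 10 were present in the files after the version was removed from each Ensembl identifier. MC3T3-E1 is a mouse preosteoblast line, labelled as strain C57BL/6 at passage 4. All 6 cultures were held in serum-free medium and then returned to complete medium with fetal bovine serum. For 24 h, 3 cultures received 100 μmol/L cyanidin-3-O-glucoside (C3G, a plant anthocyanin) and 3 received none, here called control. The labels write the dose unit as um/l. The study's text calls the controls vehicle-treated, and its methods name no vehicle. Nothing states whether the replicates were seeded from separate stocks, so the p values below measure the spread between these cultures, which may be partly technical.

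TGF-β, activin and BMP ligands bind paired serine/threonine kinase receptors at the cell surface. The activated receptors phosphorylate receptor-activated Smads: *Smad2* and *Smad3* on the TGF-β and activin side, *Smad1* and *Smad5* on the BMP side. These join the common partner encoded by *Smad4* and enter the nucleus to regulate transcription. *Smad6* and *Smad7* encode inhibitory Smads, which are themselves switched on by the pathway and close a negative feedback loop, *Smad6* mainly against BMP and *Smad7* against both branches. The Smurf ligases mark Smads and receptors for degradation, and Smad7 carries them to the receptor. In osteoblasts BMP signals favour differentiation, and *Id1* is a direct and rapid BMP target gene.

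The deposited unit is FPKM, the fragments of a gene scaled to its length and to all mapped fragments of the library, with 1 value per gene and library. Low values showed no common step of a single fragment, so the depth of the libraries and the counting error of a value are unknown. The median FPKM of a library was 5.80 in control replicate 1 and 6.93 to 7.40 in the other 5 libraries, and 71 genes were listed at 0 in control replicate 1 against 9 to 18 in the others. Control replicate 1 stood apart, with a Pearson's r of 0.886 to 0.939 with the other libraries across genes, which are not independent replicates. Of 11 osteoblast lineage markers 10 were in the files, among them *Runx2* (5.46 to 9.07 FPKM) and *Sp7* at 0.237 to 0.857 FPKM. The 10 summed to 2645 to 7738 FPKM in control and to 2681 to 3619 FPKM in C3G libraries, and 0 of them were called. The endothelial and adipocyte markers and the macrophage markers *Ptprc*, *Csf1r* and *Adgre1* had no row among the genes analysed here. The other macrophage markers summed to 32.3 to 41.0 FPKM in control and to 45.8 to 55.5 FPKM in C3G libraries. Of them *Cd68* was at 0.144 to 1.25 FPKM, and *Lyz2*, which was called higher, was at 32.1 to 40.4 FPKM in control and 45.1 to 54.3 FPKM in C3G libraries. Neither of the chondrocyte markers analysed here was called. The chondrocyte markers *Sox9* and *Col2a1* summed to 91.9 to 211 FPKM in control and to 87.8 to 111 FPKM in C3G libraries, with a median log2 difference of -0.38 and *Col2a1* at 43.7 to 104 against 35.1 to 43.9 FPKM. The muscle marker *Des* was at 0.715 to 1.63 FPKM in control and 0.780 to 0.982 FPKM with C3G. The part of these markers in the results below was not tested. A lower level in such bulk samples cannot be told apart from fewer cells of one kind expressing the gene.

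Groups were compared with limma on log2(FPKM + 1), fitted across all genes, and a gene was called past a pair of thresholds, 0.05 for the unadjusted p and 1.2 for the fold change. The thresholds are the study's, whose text states neither whether its p was adjusted nor which test made its calls, so the counts here are those of limma and not the study's own. By this rule 0 of the 10 genes were called, against 73 of all 11234 genes, a background of 0.650%. After Benjamini-Hochberg adjustment 0 of the 11234 genes passed, the 10 genes had an adjusted p of 0.992 each by limma, and 74 of all genes (0.659%) had an unadjusted p under 0.05, none of them among the 10. An ordinary linear model without moderation called 1 of the 10, *Smad7*, and 0.427% of all genes. The 2 inhibitory Smads and *Id1* had the most negative differences of the 10. The receptor-activated Smads, *Smad4* and *Smurf2* had positive differences, and *Smurf1* was close to 0. In *Smad7* alone among the 10 the groups did not overlap, with C3G lower, a pattern seen in 1.48% of all genes, and in 4.02% when both directions are counted. Values of 3 libraries are given below in the order of replicates 1, 2 and 3.

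**Figure D1:**
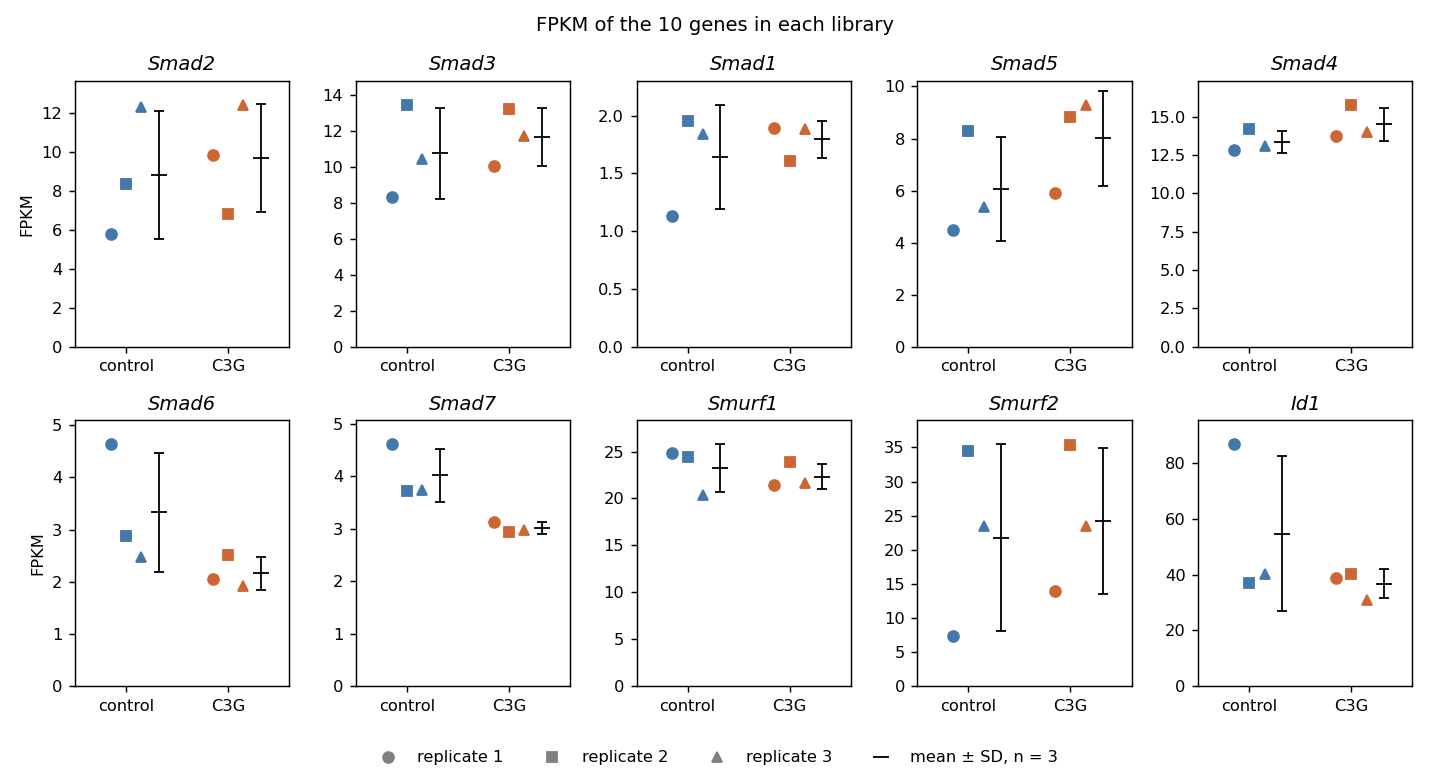
FPKM of the 10 genes in each library, with a panel per gene and a linear axis from 0. Symbols give the replicate number, blue is control, orange is C3G, and the bars at the right of each group give the mean and SD of 3 libraries. The groups are apart in *Smad7*, from 3.71 to 4.60 FPKM in control and from 2.93 to 3.13 FPKM in C3G, and control replicate 1 is far from its group in *Id1*, *Smad6* and *Smurf2*.

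Of the inhibitory Smads, *Smad7* (ENSMUSG00000025880.11, chromosome 18 of GRCm38, 75367529 to 75395935, plus strand) measured 4.60, 3.71 and 3.74 FPKM in the control libraries. The C3G libraries gave 3.13, 2.93 and 2.97 FPKM. No C3G value reached the lowest control value, and the C3G values were close together, with a coefficient of variation of 3.62% against 12.6% in control. The ratio of C3G to control in the same-numbered libraries was 0.681, 0.790 and 0.794, so the gene was lower in each of the 3 pairs, as was the case for 11.6% of all genes. The means were 4.02 ± 0.508 FPKM in control and 3.01 ± 0.109 FPKM with C3G (SD, n = 3 each). The difference of -0.32 on the log2(FPKM + 1) scale (SE 0.151) had a 95% interval from -0.68 to 0.04, that is, from 0.625 to 1.03 as a fold. Its p was 0.0742 by limma and 0.1 by the exact permutation test, the smallest that 3 libraries against 3 allow without pairing.

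The size of the *Smad7* difference depended on control replicate 1, and its p on how the spread was estimated. Without control replicate 1 the log2 difference was -0.24 (SE 0.117), and with replicates 2 and 3 only it was -0.26 (SE 0.0903). When each library was corrected for the GC content of its genes the difference was -0.25, and by pair it was then -0.24, -0.27 and -0.24. Adding the replicate number as a block left it at -0.32 uncorrected and at -0.25 corrected. For all 6 libraries the exact permutation p was 0.1. The limma p was 0.0831 without control replicate 1 and 0.0514 with the replicate block. It was 0.0403 with the GC correction and the block together, and 0.0337 with replicates 2 and 3 only. That last fit compares 2 libraries with 2, and the exact p of 0.1 is not for that set. When each of the 5 libraries other than control replicate 1 was left out, the limma p lay between 0.112 and 0.181. The ordinary linear model of all 6 libraries gave 0.0202, beside the same exact permutation p of 0.1. On the log2(FPKM + 1) scale the GC correction with the block, and replicates 2 and 3 only, fell short of the fold change of 1.2. *Smad7* was therefore not called by these fits. That scale understates changes of low genes, and the FPKM ratios of pairs 2 and 3 were 0.790 and 0.794. These fits called 2.19% and 1.70% of all genes, and the replicate block 1.50%. The sign was negative in all 16 alternatives, with values from -0.40 to -0.24. Leaving out libraries could not turn the sign, because no C3G value reached the lowest control value. The filter on mean FPKM, eBayes without trend, the ordinary linear model and the replicate block leave the estimate at -0.32.

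**Figure D2:**
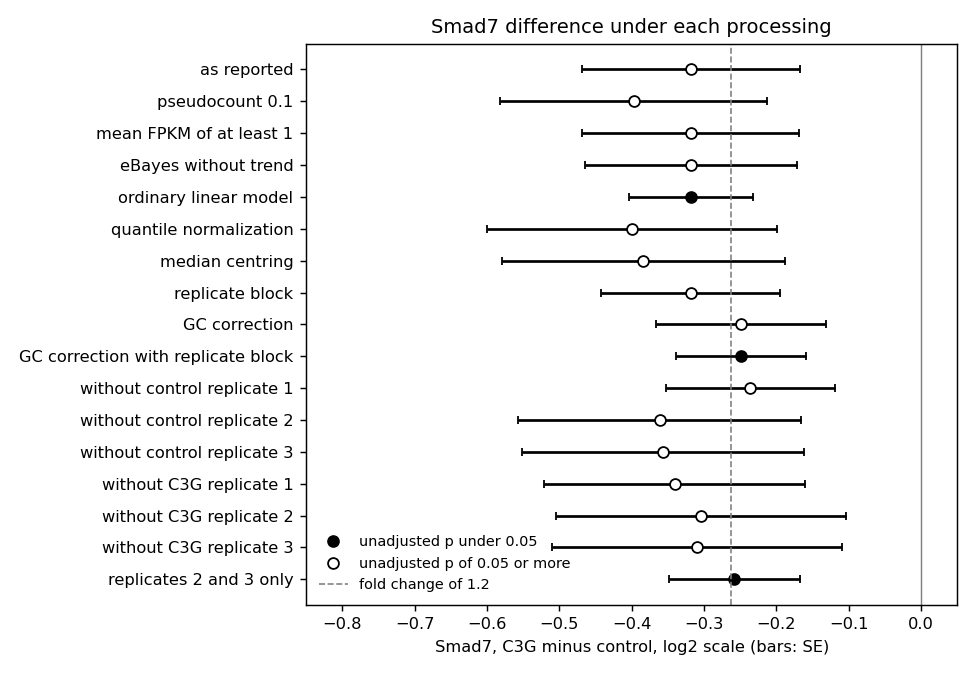
*Smad7* difference, C3G minus control on the log2 scale, as reported (-0.32) and under each of 16 other ways of processing. Bars give the SE, filled points an unadjusted p under 0.05, and the dashed line the fold change of 1.2. The values lie between -0.40 and -0.24, and the filled points are the ordinary linear model, replicates 2 and 3 only, and the GC correction when the replicate block is added.

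*Smad6* (ENSMUSG00000036867.7, chromosome 9, 63953076 to 64022059, minus strand) measured 4.63, 2.88 and 2.47 FPKM without C3G and 2.05, 2.52 and 1.92 FPKM with it. C3G replicate 2 lay above control replicate 3, so the groups overlapped, although the gene was lower with C3G in each of the 3 pairs. The log2 difference was -0.43 (SE 0.218, 95% interval -0.95 to 0.09, limma p = 0.0915, exact permutation p = 0.2). Without control replicate 1, whose value was the highest of the 6, it came to -0.22, and with the GC correction to -0.25. The sum of *Smad6* and *Smad7* came to 9.23, 6.59 and 6.21 FPKM without C3G and to 5.18, 5.45 and 4.88 FPKM with it. The receptor-activated Smads *Smad1*, *Smad2*, *Smad3* and *Smad5* summed to 2.14, 4.86 and 4.83 times that level without C3G and to 5.35, 5.59 and 7.23 times with it, given here as a description. The lowest of these ratios belonged to control replicate 1, and the other 5 ran from 4.83 to 7.23.

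Promoters were in the RefSeq table (GRCm38.p6) for 6 of the 10 genes. The 250 bases before the start of *Smad6* are shown because it is the inhibitory Smad among them, and those of *Smurf2* because that gene varied most between libraries. Capitals mark GGCGCC and GGAGCC, the GC-rich elements known to bind BMP Smads, and CAGAC, the Smad box, each searched on both strands with no overlapping matches. *Smad6* held 2 copies of GGAGCC, at chr9:64022060-64022309 on the minus strand. *Smurf2* held 2 of GGCGCC, 2 of GGAGCC and 1 of CAGAC, at chr11:106920716-106920965 on the minus strand. Of all 32851 promoter windows of this length, 9.59% held GGCGCC, 26.0% GGAGCC and 42.2% CAGAC. These shares are not matched for GC content, which was 66.8% in the *Smad6* window and 82.0% in that of *Smurf2*. The windows of *Smad1* and *Smad3* and 1 window of *Smad5* held none of these elements. The window of *Smurf1* and the other windows of *Smad5* held at least 1. These matches describe letters in the window and are not measured sites.
Smad6: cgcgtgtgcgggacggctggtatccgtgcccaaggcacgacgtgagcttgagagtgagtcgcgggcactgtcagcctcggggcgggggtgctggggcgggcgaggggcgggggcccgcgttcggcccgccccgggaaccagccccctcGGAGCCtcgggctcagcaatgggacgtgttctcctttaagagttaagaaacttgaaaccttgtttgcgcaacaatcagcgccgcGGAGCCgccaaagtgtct
Smurf2: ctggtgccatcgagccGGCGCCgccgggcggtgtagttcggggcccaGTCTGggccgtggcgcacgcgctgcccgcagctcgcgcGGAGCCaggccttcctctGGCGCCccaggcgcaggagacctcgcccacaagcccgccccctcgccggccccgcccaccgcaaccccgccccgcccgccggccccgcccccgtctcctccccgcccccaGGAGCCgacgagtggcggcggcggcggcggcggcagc

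Neither carrier of the TGF-β and activin branch differed beyond the spread between libraries. *Smad2* (ENSMUSG00000024563.15, chromosome 18, 76241580 to 76310963, plus strand) measured 5.80, 8.34 and 12.3 FPKM without C3G and 9.83, 6.81 and 12.4 FPKM with it. Both groups ran over nearly the same range, and the pairs differed in sign. The log2 difference was 0.14 (SE 0.308, 95% interval -0.59 to 0.87, limma p = 0.662, exact permutation p = 0.7), and without control replicate 1 it was -0.10. With the GC correction it was 0.0022. *Smad3* (ENSMUSG00000032402.12, chromosome 9, 63646767 to 63757994, minus strand), on the same chromosome as *Smad6*, had 8.36, 13.5 and 10.5 FPKM in control and 10.1, 13.3 and 11.7 FPKM with C3G. Its order over the replicate numbers was the same in both groups, lowest in replicate 1 and highest in replicate 2. The log2 difference was 0.12 (SE 0.211, 95% interval -0.38 to 0.62, limma p = 0.577, exact permutation p = 0.7), and without control replicate 1 it was -0.03.

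Of the BMP carriers, *Smad1* (ENSMUSG00000031681.16, chromosome 8, 79338395 to 79399518, minus strand) was the lowest of the 10 genes. It measured 1.13, 1.96 and 1.84 FPKM without C3G and 1.89, 1.61 and 1.89 FPKM with it, with the low value in control replicate 1. On the log2 scale C3G minus control was 0.09 (SE 0.171, 95% interval -0.31 to 0.50, limma p = 0.602, exact permutation p = 0.8), and it was -0.05 without control replicate 1. *Smad5* (ENSMUSG00000021540.16, chromosome 13, 56703010 to 56742377, plus strand) had 4.50, 8.30 and 5.37 FPKM in control and 5.93, 8.81 and 9.28 FPKM with C3G. It was higher with C3G in each of the 3 pairs, as were 14.2% of all genes, and the pairs differed from 1.06-fold in replicate 2 to 1.73-fold in replicate 3. With a log2 difference of 0.37 (SE 0.262, 95% interval -0.26 to 0.99, limma p = 0.205, exact permutation p = 0.2) it had the largest positive value of the 10, and its groups overlapped. The *Smad5* difference was 0.21 without control replicate 1 and 0.58 without control replicate 2. After the GC correction the sign of pair 1 turned, with pairs at -0.12, 0.10 and 0.70. A small RNA gene, *Gm27301*, lies within its exons on the same strand.

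*Smad4* (ENSMUSG00000024515.13, chromosome 18, 73639009 to 73703780, minus strand), the partner shared by both branches, was among the most even of the genes. It measured 12.8, 14.2 and 13.1 FPKM without C3G and 13.7, 15.7 and 14.0 FPKM with it. Each C3G library was above the control library of the same number, by 7.12%, 11.2% and 7.03%, and the groups overlapped. After the GC correction the pairs stood at -0.13, 0.14 and 0.10. The log2 difference was 0.11 (SE 0.145, 95% interval -0.24 to 0.45, limma p = 0.478, exact permutation p = 0.3). Control replicate 1 was not far from its group in this gene, and without it the difference was 0.08, whereas without C3G replicate 2 it was 0.052. With the GC correction it was 0.04.

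The ligase genes differed from each other in how much they varied. *Smurf1* (ENSMUSG00000038780.14, chromosome 5, 144876495 to 144965847, minus strand) had 24.9, 24.5 and 20.3 FPKM in control and 21.4, 23.9 and 21.7 FPKM with C3G. All 6 libraries lay within 1.22-fold of each other, and the log2 difference was -0.05 (SE 0.154, 95% interval -0.42 to 0.31, limma p = 0.749, exact permutation p = 0.8). The *Smurf1* difference was -0.00061 without control replicate 1, -0.14 without control replicate 3 and -0.011 with the GC correction. *Smurf2* (ENSMUSG00000018363.16, chromosome 11, 106820066 to 106920715, minus strand) measured 7.31, 34.5 and 23.4 FPKM without C3G and 13.9, 35.3 and 23.5 FPKM with it. With C3G it was 90.8%, 2.26% and 0.500% higher in pairs 1, 2 and 3, while control libraries differed by up to 4.72-fold and C3G libraries by up to 2.53-fold. On the log2 scale the groups differed by 0.30 (SE 0.575, 95% interval -1.07 to 1.66, limma p = 0.624, exact permutation p = 0.6). Without control replicate 1 the difference was -0.31, and with replicates 2 and 3 only it was 0.02. The ratio of *Smurf2* to *Smurf1* was 0.294 in control replicate 1, 0.650 in C3G replicate 1 and 1.09 to 1.48 in the other 4 libraries. The microRNA gene *Gm27322* lies within the exons of *Smurf2* on the same strand.

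*Id1* (ENSMUSG00000042745.9, chromosome 2, 152736251 to 152737410, plus strand), which encodes an inhibitor of basic helix-loop-helix factors, had the highest level of the 10. It measured 86.7, 37.0 and 40.2 FPKM without C3G and 38.9, 40.3 and 30.8 FPKM with it. The groups overlapped, and control replicate 1 stood above the other 5 libraries, which ran from 30.8 to 40.3 FPKM. The groups differed by -0.46 on the log2 scale (SE 0.336, 95% interval -1.26 to 0.34, limma p = 0.212, exact permutation p = 0.5), and without control replicate 1 it was -0.08. The related BMP target *Id3* (chromosome 4, 136143497 to 136145755) had 92.4, 45.2 and 48.2 FPKM in control and 38.7, 47.6 and 36.8 FPKM with C3G, a log2 difference of -0.51 (SE 0.295, limma p = 0.127, exact permutation p = 0.2) that was -0.19 without control replicate 1. The ratio of *Id1* to *Id3* stayed between 0.819 and 1.01 over the 6 libraries, whereas *Id1* itself covered a 2.82-fold range.

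**Figure D3:**
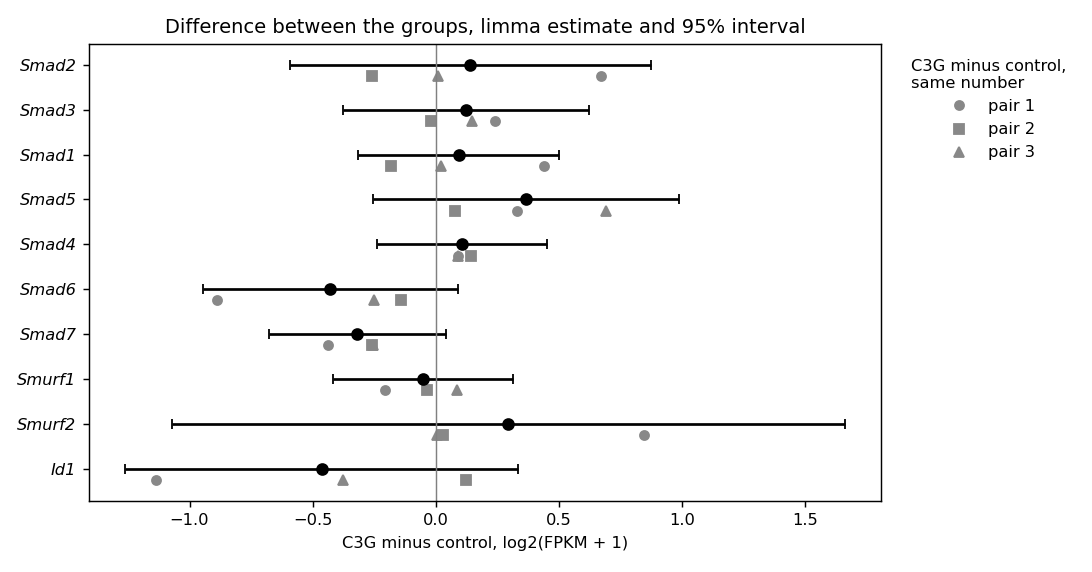
Difference between the groups for the 10 genes on the log2(FPKM + 1) scale, C3G minus control. Black points and bars are the limma estimate with its 95% interval, and grey symbols are the differences of the same-numbered libraries. Every interval covers 0, and that of *Smad7*, from -0.68 to 0.04, comes nearest to leaving it out.

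As a fold the interval ran from 0.849 to 1.37 for *Smad4* and from 0.749 to 1.24 for *Smurf1*. Those of *Smurf2*, from 0.476 to 3.17, and *Id1*, from 0.417 to 1.26, were wider. With the replicate number as a block, which takes up the spread that same-numbered libraries share, they narrowed to 0.839 to 1.79 for *Smurf2* and to 0.453 to 1.16 for *Id1*, and both still covered a fold of 1.

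Across all genes, the departure of control replicate 1 from control replicates 2 and 3 followed the GC content of the longest transcript, with a Spearman's rho of 0.748 across 11211 genes. Over the 10 genes described here rho was 0.830, as a description of 10 values that share their libraries. For C3G replicate 1 against C3G replicates 2 and 3 rho was 0.631 across all genes and 0.333 over the 10. *Smad6*, with 60.8% GC the richest of the 10, was 0.62 higher in control replicate 1 than in control replicates 2 and 3 on the log2 scale, and *Smad7*, with 56.9%, was 0.25 higher. *Smurf2*, with 46.7%, was 1.83 lower in that library, *Smad2*, with 44.9%, was 0.71 lower and *Smad5*, with 44.5%, was 0.48 lower. *Id1*, with 54.7%, was 1.15 higher, the largest positive departure of the 10. C3G replicate 1 departed by -0.998 in *Smurf2*, by -0.54 in *Smad5* and by -0.28 in *Smad3*, and by less in the other 7 genes. The part that this departure plays in the differences between the groups was not tested beyond the corrected and reduced comparisons given above.

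**Figure D4:**
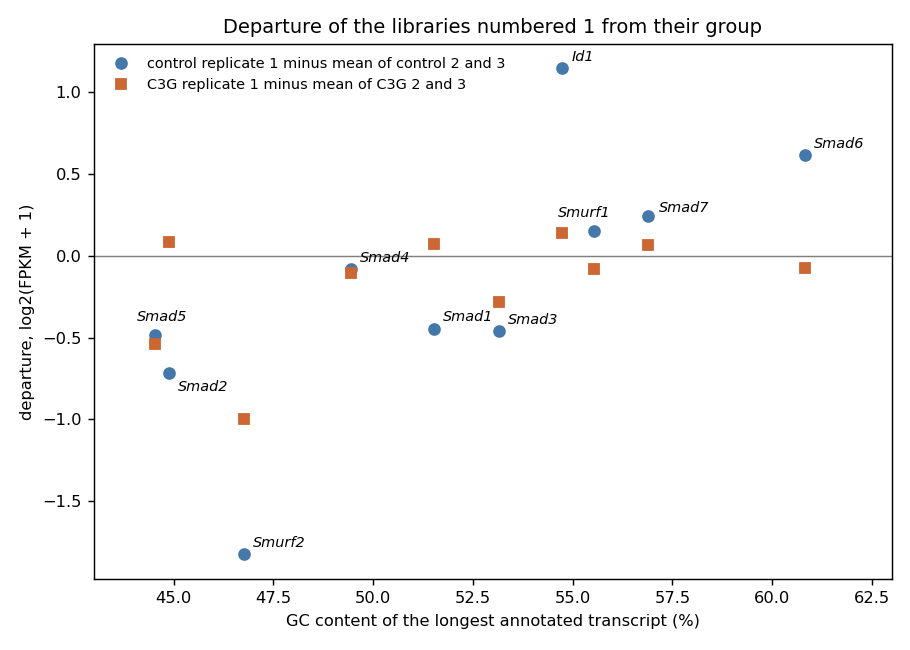
Departure of control replicate 1 (blue) and C3G replicate 1 (orange) from the mean of replicates 2 and 3 of the same group, on the log2(FPKM + 1) scale, against the GC content of the longest annotated transcript in percent. In control replicate 1 the departures run from -1.83 in *Smurf2* to 1.15 in *Id1*, and the 6 genes of lowest GC content lie below 0 while the 4 of highest lie above it.

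FPKM is scaled for length, so levels of different genes can be set side by side. In the order of the mean over all 6 libraries the genes were *Id1* (45.7 FPKM), *Smurf2* (23.0), *Smurf1* (22.8), *Smad4* (13.9), *Smad3* (11.2), *Smad2* (9.24), *Smad5* (7.03), *Smad7* (3.51), *Smad6* (2.74) and *Smad1* (1.72). Neighbours were compared within libraries with a two-sided exact sign-flip permutation test over the 6 libraries, adjusted over the 9 pairs. The test takes the libraries as independent, although same-numbered ones shared part of their spread, and the order came from the same values. No pair passed after the adjustment. In 4 of the 9 pairs, *Id1* over *Smurf2*, *Smurf1* over *Smad4*, *Smad4* over *Smad3* and *Smad6* over *Smad1*, the order held in all 6 libraries (adjusted exact p = 0.0703, from the smallest p that 6 libraries allow). *Smurf2* and *Smurf1* did not differ beyond their spread (exact p = 0.812), with *Smurf2* higher in 4 of 6 libraries. On the log2 scale that was tested their mean difference was -0.15, with *Smurf1* the higher, the reverse of the order by mean FPKM. *Smad3* and *Smad2* (exact p = 0.219) and *Smad2* and *Smad5* (exact p = 0.156) did not differ beyond their spread either. *Smad7* was above *Smad6* in 5 of 6 libraries (exact p = 0.0625, adjusted p = 0.0938), at 0.993 to 1.55 times its level. Both inhibitory Smads were at the low end of the levels of these 10 genes, beside *Smad1*.

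The likeness of other genes to *Smad7* was measured as Pearson's r of log2(FPKM + 1) over the 6 libraries, without a test. Among 10463 genes with a mean of at least 1 FPKM, 82 (0.784%) had an r of at least 0.9. The highest were *Nupr1* (r = 0.992), a stress-induced chromatin protein, *B630019K06Rik* (r = 0.985), *Ube2m* (r = 0.978), the NEDD8-conjugating enzyme, *Ppp1r15a* (r = 0.970) and *Dynll2* (r = 0.968), a dynein light chain. *Nupr1* had 7.34, 5.99 and 5.57 FPKM in control and 4.57, 4.28 and 4.28 FPKM with C3G. Such genes share the library in which *Smad7* was highest. Of the 5 genes, *Nupr1*, *Ube2m*, *Ppp1r15a* and *Dynll2* were also called, each lower with C3G. Their r with *Smad7* therefore also carries the difference between the groups, with or without the libraries numbered 1. Without those libraries the r of these 5 genes was 0.926 to 0.989. Among the pathway genes and the other members the most like *Smad7* were *Ppp1r15a*, *Smad6* (r = 0.890) and *Id3* (r = 0.857). Without the libraries numbered 1 these r values were 0.945, 0.632 and 0.474. The receptor-activated Smads, *Smad4* and *Smurf2* had negative r with *Smad7* over the 6 libraries, from -0.76 for *Smad5* to -0.44 for *Smad2*. Without control replicate 1 the r of *Smad5* was -0.51 and that of *Smad4* was -0.61, whereas *Smad3* stood at -0.070 and *Smad1* (0.53), *Smad2* (0.22) and *Smurf2* (0.14) were positive.

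A further 134 genes of the TGF-β and BMP pathway were listed by role, and 102 of them were in the files. Among these 102 genes 1 was called lower and 0 higher, against 0.249% and 0.401% of all genes. Their median log2 difference was 0.09, beside 0.06 over all genes, with 70 of the 102 at positive and 32 at negative values against 6960 and 4274 of all genes. The median over all genes was -0.012 without control replicate 1 and -0.0083 with median centring. The called gene was *Ppp1r15a* (chromosome 7, 45522916 to 45526268), which encodes GADD34, a regulatory subunit of protein phosphatase 1 that is known to work with Smad7 in dephosphorylating the TGF-β type I receptor. It measured 15.1, 8.69 and 8.89 FPKM without C3G and 5.98, 6.65 and 5.67 FPKM with it. It fell by 0.70 on the log2 scale (SE 0.234, limma p = 0.0204, exact permutation p = 0.1), and by 0.47 without control replicate 1. The call was lost without C3G replicate 1 and without C3G replicate 3, where the differences were -0.69 and -0.66. The limma p was then 0.0564 and 0.0672, whereas the exact permutation p of 0.1 is for all 6 libraries. *Ppp1ca*, the catalytic subunit of that phosphatase, had 172 to 181 FPKM in control and 174 to 221 FPKM with C3G (log2 difference 0.13, limma p = 0.455, exact permutation p = 0.3). The *Ppp1ca* difference was 0.041 without C3G replicate 1, 0.21 without C3G replicate 3 and 0.016 with replicates 2 and 3 only.

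With the replicate block 2 of the 102 genes were called, against 1.50% of all genes under that fit. The added gene was *Chrdl1* (chromosome X, 143285674 to 143394262), a secreted BMP antagonist. It measured 7.41, 41.3 and 12.7 FPKM without C3G and 11.9, 46.9 and 37.3 FPKM with it. It was higher in each of the 3 pairs, and most of its difference came from pair 3. Its log2 difference was 0.76, with a limma p of 0.0390 under the block and 0.318 without it (exact permutation p = 0.5). The call was lost when the GC correction was added to the block, where the difference was 0.55, and the difference ran from 0.25 without control replicate 1 to 1.42 without control replicate 2, which also called it. *Chrdl1* was named after its values were seen.

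**Figure D5:**
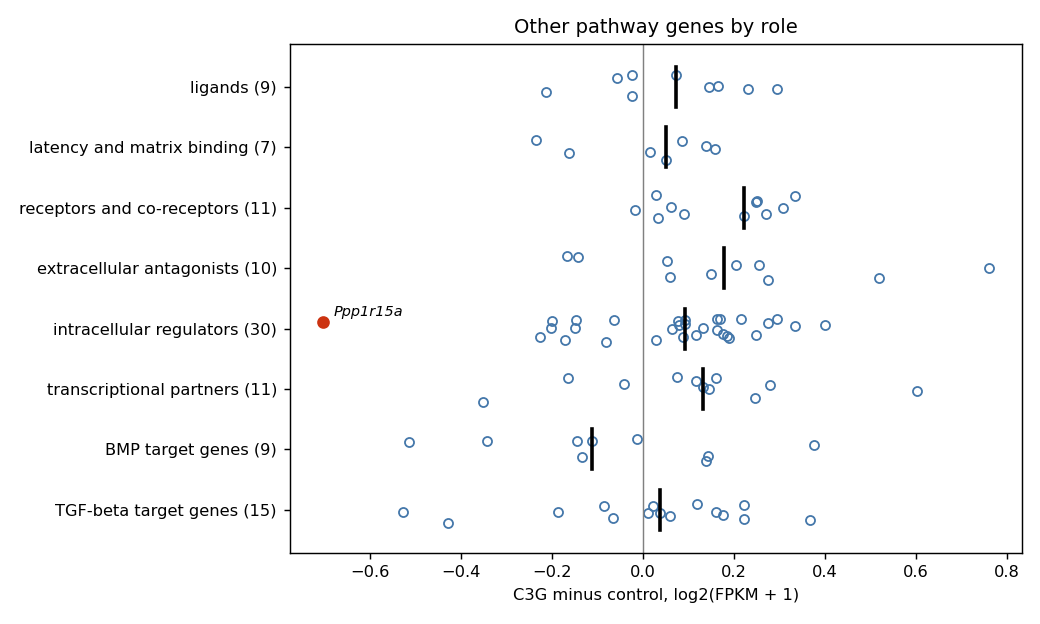
Log2 difference between the groups, C3G minus control, of 102 other genes of the pathway by role, with the number of genes in brackets. Open circles were not called, the filled circle (*Ppp1r15a*) was, and vertical bars give the median of each role. The medians run from -0.11 for BMP target genes to 0.22 for receptors and co-receptors. They include control replicate 1 and were not computed without it.

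By role, 0 of 9 ligands were called. *Tgfb2* (chromosome 1, 186622792 to 186705989), with the smallest p of them, had 5.98, 8.94 and 9.16 FPKM in control and 9.83, 10.4 and 9.53 FPKM with C3G. Every C3G library was above every control library in *Tgfb2*, a pattern found in 2.55% of all genes, and its log2 difference was 0.30 (SE 0.194, limma p = 0.174, exact permutation p = 0.1). Without control replicate 1 the *Tgfb2* difference was 0.12, and with replicates 2 and 3 only it was 0.13. *Gdf11*, the ligand with the highest mean level, had a log2 difference of -0.02 (SE 0.153, limma p = 0.880, exact permutation p = 0.7). Of 7 latency and matrix binding genes 0 were called, and *Thbs1*, which encodes a matrix protein that can activate latent TGF-β, had 110 to 156 FPKM in control and 123 to 179 FPKM with C3G (log2 difference 0.16, limma p = 0.493, exact permutation p = 0.5). The *Thbs1* difference was 0.019 without control replicate 1 and 0.029 without C3G replicate 3.

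Of 11 receptors and co-receptors 0 were called. *Tgfbr2*, the type II receptor of TGF-β and the highest of them, had 25.3, 49.5 and 39.1 FPKM in control and 38.3, 50.4 and 43.2 FPKM with C3G. Its log2 difference of 0.25 (limma p = 0.377, exact permutation p = 0.6) turned to -0.01 without control replicate 1. *Rgma*, a BMP co-receptor, had 7.53, 8.09 and 9.19 FPKM in control and 12.4, 8.82 and 10.4 FPKM with C3G (log2 difference 0.31, SE 0.179, limma p = 0.130, exact permutation p = 0.2). The *Rgma* difference was 0.19 without C3G replicate 1, 0.14 with replicates 2 and 3 only and 0.48 with the GC correction. Of 10 extracellular antagonists 0 were called. *Bgn* and *Dcn*, small proteoglycans that bind TGF-β, had log2 differences of 0.15 (limma p = 0.476, exact permutation p = 0.6) and 0.52 (limma p = 0.310, exact permutation p = 0.7), and *Dcn* turned to -0.06 without control replicate 1. *Bgn* was at 0.0082 without that library and at 0.032 without C3G replicate 1.

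Of 30 intracellular regulators 1 was called, and of 11 transcriptional partners 0 were. *Hdac1*, a histone deacetylase, had a log2 difference of 0.08 (limma p = 0.635, exact permutation p = 0.5) that was 0.022 without control replicate 1 and 0.0085 without C3G replicate 1. *Sp1*, a general factor that acts with Smads at many promoters, was at 2.74 FPKM in control replicate 1 and at 12.4 to 17.8 FPKM in the other 5 libraries (log2 difference 0.60, limma p = 0.349, exact permutation p = 0.8, and -0.15 without control replicate 1). Of 9 BMP target genes 0 were called, and their median of -0.11, with control replicate 1 included, was the lowest of the roles. *Id4*, the highest of them, had a log2 difference of -0.13 (SE 0.278, limma p = 0.646, exact permutation p = 0.7). Of 15 TGF-β target genes 0 were called. *Col1a1*, the main collagen of bone, was at 4432 FPKM in control replicate 1 and at 923 to 1478 FPKM in the other 5 libraries, and its log2 difference of -0.53 (limma p = 0.395, exact permutation p = 0.7) turned to 0.15 without that library. *Acta2*, the smooth muscle actin gene, had a log2 difference of 0.22 (SE 0.214, limma p = 0.337, exact permutation p = 0.3) that was 0.12 without C3G replicate 2 and 0.37 without C3G replicate 3. Exons of *Tgfb2*, *Thbs1*, *Rgma*, *Id4*, *Ppp1r15a* and *Ppp1ca* overlap genes on the opposite strand, and the authors' use of strand in counting is not given in the sources used here.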

How the data were processed

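RNA was sequenced from 3 C3G-treated and 3 control MC3T3-E1 cultures with a stranded library kit. The authors deposited FPKM values per gene, which their methods state were calculated with Ballgown. The submitters' processing notes list cutadapt, HISAT2 2.1.0, StringTie and STAR 2.5.2b without roles, and the build hg19, whereas all 11234 gene identifiers are from mouse. The methods give Student's test for pairs of groups without saying whether it made the calls. No filter is stated, and every gene has a mean of at least 0.500 FPKM in 1 of the groups. Identifiers were matched to GENCODE M21 (GRCm38), with a symbol for 11211. *Ctgf* and *Cyr61* were matched as *Ccn2* and *Ccn1*.

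Values were transformed to log2(FPKM + 1), a scale that understates changes of low genes, and fitted with limma 3.58.1 (lmFit, eBayes with trend) in R 4.3.3 over all genes and 6 libraries, group being the only term, with Benjamini-Hochberg adjustment. Permutation tests were exact and two-sided. Python 3.11.15, pandas 2.3.3, numpy 2.4.6 and scipy 1.17.1 were used. The fit was tested on simulated data. Libraries were grouped by their titles. The replicate numbers were taken from the titles. Departures of same-numbered libraries from their group means correlated at 0.653, 0.580 and 0.440 across genes, against -0.640 to 0.307 for other pairs. Same-numbered libraries thus shared part of their spread. The main fit and the exact permutation tests between groups treated the libraries as unpaired, and only the fits with the replicate block took the numbers into account. Alternatives were a pseudocount of 0.1, a mean FPKM of at least 1, eBayes without trend, quantile normalization, centring on the median, an ordinary linear model, the replicate block, a GC correction (natural spline, 5 degrees of freedom) with and without that block, each library left out, and replicates 2 and 3 only.

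Besides the 10 genes, the text names the called pathway genes and, for each role, those with the highest mean FPKM and the smallest p. The members and gene lists were chosen with earlier results of these data known. The 32 listed pathway genes that did not match a row were not analysed here.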

Additional observations from a re-analysis of the deposited data

How the results depend on the processing

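Over all genes, 73 were called as reported, and 48 with the ordinary linear model, 169 with the replicate block, 135 with the GC correction, 246 with both, and 191 with replicates 2 and 3 only. Leaving out each library in turn gave 40 to 144: 144 and 127 without control replicates 1 and 2, and 45, 40 and 43 without C3G replicates 1, 2 and 3. Of the 10 genes 0 were called under every alternative except the ordinary linear model, which called 1, *Smad7* at -0.32. Leaving out each library gave 0 in every case. Of the other pathway genes 1 was called as reported, 2 with the replicate block, and 0 to 2 with each library left out, 0 without C3G replicate 1 or 3, where *Ppp1r15a* was lost, and 2 without control replicate 2, where *Chrdl1* was added. Among the 10 genes and the pathway genes chosen by the naming rule the replicate block changed no call.

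The direction of *Smad5*, *Smad4*, *Smad6*, *Smad7* and *Id1* held in all 16 alternatives. Some of these, such as the ordinary linear model and the replicate block, leave the estimate unchanged and could not turn it. For *Smad7*, whose groups did not overlap, leaving out libraries could not turn it either. With replicates 2 and 3 only the log2 difference reversed to -0.12 in *Smad2*, -0.079 in *Smad1*, 0.027 in *Smurf1*, -0.11 in *Bgn*, -0.045 in *Hdac1* and -0.017 in *Sp1*. With each library left out the values ran from -0.10 to 0.39 in *Smad2*, -0.030 to 0.28 in *Smad3*, -0.054 to 0.18 in *Smad1*, -0.31 to 0.73 in *Smurf2*, -0.087 to 0.039 in *Gdf11*, -0.0089 to 0.46 in *Tgfbr2*, -0.056 to 0.86 in *Dcn*, -0.15 to 0.98 in *Sp1*, -0.35 to 0.077 in *Id4* and -0.96 to 0.15 in *Col1a1*. The cause of these reversals was not tested. Depth is unknown, so counting error cannot be given.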
